A study of Mus musculus with 64 samples.

Results

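The genes described here are 10 core circadian clock genes: Arntl (also called Bmal1), Clock, Npas2, Per1, Per2, Per3, Cry1, Nr1d1, Dbp and Ciart. They were taken as the rows of 2 deposited count tables whose Ensembl identifiers belong to these symbols. All 10 were found among the 55414 gene rows of the acute table and the 55573 gene rows of the continuous table. The mice were adult males of 10 to 18 weeks, wild type (WT) or a model of Angelman syndrome (AS) that carries an exon deletion in the maternal copy of the ubiquitin ligase gene Ube3a and an intact paternal copy, on an F1 hybrid background of C57BL/6J and 129sv. In the acute cohort, 6 mice per genotype and treatment received a subcutaneous injection of 3 mg/kg corticosterone (CORT, the main glucocorticoid of mice) or of vehicle, 5% ethanol in saline, and the left hippocampus was taken 3 h later. In the continuous cohort, 5 mice per genotype and treatment carried a subcutaneous slow-release pellet with 20 mg corticosterone in cholesterol or a pellet of cholesterol alone for 5 days, and hippocampus and liver were taken from the same animals. The collection time of the continuous cohort is not given in the sources used here.

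The molecular clock is a feedback loop. The proteins of Arntl and of Clock or Npas2 bind E-boxes as pairs and activate the Per and Cry genes, whose proteins repress that activation. Nr1d1 (REV-ERB alpha) represses Arntl and Npas2 through ROR elements, Dbp is an output factor that acts through D-boxes, and Ciart is a further repressor driven by the loop. In mammalian tissues Arntl and Npas2 transcripts peak at about the opposite phase to Nr1d1 and Dbp, and glucocorticoids, acting through the glucocorticoid receptor, are known to induce Per1.

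In build GRCm38, Per1 lies at chr11:69095217-69109960, Dbp at chr7:45705088-45710203, Ciart at chr3:95878503-95882251 and Arntl at chr7:113207465-113314126. Per3 lies at chr4:151003652-151044665 and Nr1d1 at chr11:98767932-98775333. Nr1d1 shares 263 exon bases with Thra and Dbp 539 with Sphk2, both on the opposite strand, and the strand setting of the counting is not given in the sources used here.

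Libraries held 18612550 to 21783009 counts on genes. Values are CPM, read counts scaled to library size with the trimmed mean of M values (TMM), and the 3-count floor lay between 0.138 and 0.161 CPM. The study left hippocampal libraries 9 and 13 of the continuous cohort out as technical outliers. In these libraries the summed level of 6 thalamus and striatum markers was 1178.75 and 1971.24 CPM, against 76.6 to 192 CPM in the 18 hippocampi that were fitted. Their values are given here, and they entered no fit, as in the study. The glucocorticoid targets Fkbp5 and Tsc22d3 rose with CORT in each genotype and data set. In liver, Fkbp5 rose by 3.43 on the log2 scale in WT mice (edgeR adjusted p = 2.06e-07) and by 4.14 in AS mice (edgeR adjusted p = 1.60e-08). Whole-gene Ube3a counts include the exons that the allele keeps. Ube3a was lower in AS than in WT livers with vehicle (log2 fold change -0.55, edgeR adjusted p = 0.0191) and with CORT (-0.48, edgeR adjusted p = 0.0133), and none of its hippocampal contrasts passed the threshold, so in hippocampus these counts do not check the genotype. Hippocampal neuron markers summed to 3416.55 to 8141.78 CPM in hippocampus, and hepatocyte markers to 98764 to 148244 CPM in liver.

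To show where known clock elements lie, promoters were read from RefSeq (build GRCm38.p6), which matched 9 of the 10 genes, without Per2, in 13 windows of 250 bases before a start site. The windows of Per1, Ciart, Per3 and Nr1d1 are printed because they held a motif match and the values below turn on these genes. Capitals mark matches to an E-box (CACGTG), an E-prime box (CACGTT, here read on the opposite strand as AACGTG) or a D-box (TTATGNAA).
Per1, chr11:69098699-69098948, + strand: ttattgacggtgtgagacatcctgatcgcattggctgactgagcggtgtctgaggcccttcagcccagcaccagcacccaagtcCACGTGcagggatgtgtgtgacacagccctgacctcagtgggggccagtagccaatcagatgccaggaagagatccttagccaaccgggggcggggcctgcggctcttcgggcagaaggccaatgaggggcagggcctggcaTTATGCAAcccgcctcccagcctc
Ciart, chr3:95882229-95882478, - strand: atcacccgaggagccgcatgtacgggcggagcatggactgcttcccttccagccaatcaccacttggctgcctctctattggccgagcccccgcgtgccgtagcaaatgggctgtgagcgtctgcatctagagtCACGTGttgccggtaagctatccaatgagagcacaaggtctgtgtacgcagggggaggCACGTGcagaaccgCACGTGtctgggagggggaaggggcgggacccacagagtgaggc
Per3, chr4:151044666-151044915, - strand: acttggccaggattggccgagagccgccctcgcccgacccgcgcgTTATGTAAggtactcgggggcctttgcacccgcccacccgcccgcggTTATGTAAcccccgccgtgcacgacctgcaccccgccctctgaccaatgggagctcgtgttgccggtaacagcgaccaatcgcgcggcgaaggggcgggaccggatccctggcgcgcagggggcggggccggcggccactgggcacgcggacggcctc
Nr1d1, chr11:98775378-98775627, - strand: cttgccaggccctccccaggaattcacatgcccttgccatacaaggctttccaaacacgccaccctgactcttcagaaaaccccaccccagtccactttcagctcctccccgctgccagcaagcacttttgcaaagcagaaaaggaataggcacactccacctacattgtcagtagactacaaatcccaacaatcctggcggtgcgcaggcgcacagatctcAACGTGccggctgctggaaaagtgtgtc
The Ciart window held 3 E-boxes, starting 116, 58 and 44 bases before the start site. The Per1 window held 1 E-box, 166 bases before the start, and 1 D-box, 24 bases before it. The Per3 window held 2 D-boxes, 205 and 158 bases before the start, and the Nr1d1 window 1 E-prime box, 28 bases before it. Cry1, whose window is not printed, held 1 E-box at 60 bases and 1 E-prime box at 79 bases before its start. The windows of Arntl, Clock, Npas2 and Dbp and the second Per1 window held none of these motifs. Both strands were searched. Of 32851 promoter windows of this length, 6.02% held an E-box, 3.85% an E-prime box and 3.07% a D-box. The ROR element (TAGGTCA, in 2.23% of all windows) and the core of a glucocorticoid response element (ACANNNTGT, in 5.84%) were not in these 13 windows.

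In liver, clock genes ranked high for the spread between mice of one group. Dbp had the largest within-group standard deviation (SD) of the 12273 genes tested in liver, 3.14 on the log2 CPM scale, Npas2 ranked 2 (SD 2.69), Ciart 3 (2.37) and Arntl 4 (2.32). Per3 (1.98, rank 8) and Per1 (1.69, rank 16) followed, then Per2 (0.98), Nr1d1 (0.84), Clock (0.67) and Cry1 (0.52). The median gene tested in liver had an SD of 0.19. In the acute hippocampus the 10 clock genes had SDs of 0.15 to 0.23, with a median of 0.16 over all genes tested. In the continuous hippocampus Ciart (0.50), Dbp (0.42) and Nr1d1 (0.29) had the largest SDs of the 10, against a median of 0.13.

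**Figure D1:**
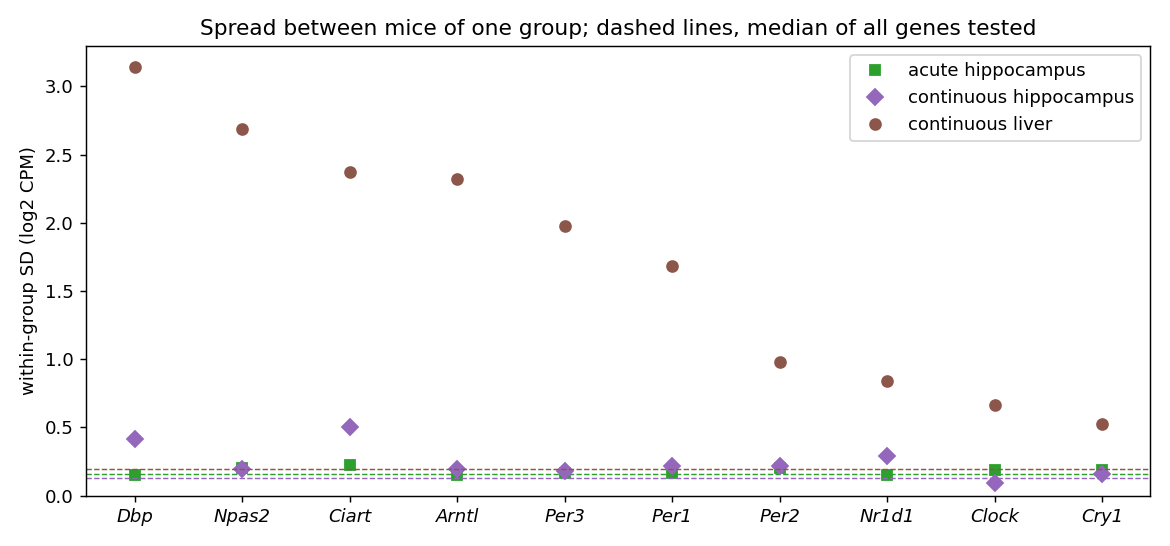
Pooled within-group SD of log2 CPM (vertical axis) for each clock gene in the 3 data sets, with the median over all genes tested as a dashed line. Dbp, Npas2, Ciart and Arntl lie above 2.3 in liver, where the median gene is at 0.19.

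Dbp, the output factor, divided the livers into separate sets that ran across the 4 groups. In WT vehicle livers Dbp was 203 CPM (mouse 1), 201 (mouse 4), 1.82 (mouse 6), 3.83 (mouse 13) and 1.73 (mouse 17). In WT CORT livers it was 75.3 CPM (mouse 3), 4.21 (mouse 5), 1.55 (mouse 12), 0.77 (mouse 15) and 2.75 (mouse 20). In AS vehicle livers it was 237 CPM (mouse 2), 0.65 (mouse 9), 0.74 (mouse 11), 0.93 (mouse 14) and 1.06 (mouse 19). The widest gap on the log scale lay between 4.21 and 60.0 CPM. In AS CORT livers Dbp was 73.0 CPM (mouse 7), 60.0 (mouse 8), 2.01 (mouse 10), 2.18 (mouse 16) and 1.23 (mouse 18). Mice 1, 2, 3, 4, 7 and 8 thus stood above the gap and the other 14 below it, with at least 1 of the 6 in every group. This division was drawn from the values and is not in the labels, and the sets are described here with no test between them.

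The activators ran opposite to Dbp. Arntl, the partner of Clock, was 0.29 to 5.02 CPM in the 6 livers and 26.3 to 40.5 CPM in the other 14. Npas2, a Clock paralog, was 0.05 to 0.99 CPM in the 6, with 1 to 3 counts in some, and 7.24 to 19.7 CPM in the 14. Clock was 16.2 to 40.7 CPM in the 6 and 48.6 to 73.0 CPM in the 14. Cry1, a repressor, was lower too, with 7.54 to 18.2 CPM against 18.4 to 31.1 CPM. The other repressors were high where Dbp was high. Per3 was 23.6 to 52.2 CPM in the 6 and 1.03 to 4.77 CPM in the 14, and Ciart 16.9 to 26.4 CPM against 0.10 to 5.08 CPM. Per1 (44.4 to 66.2 against 0.59 to 39.1 CPM) and Per2 (39.0 to 51.9 against 3.54 to 32.5 CPM) also did not overlap. Nr1d1 overlapped, with 64.3 to 109 CPM in the 6 and 14.4 to 83.7 CPM in the 14. In all, 9 of the 10 genes did not overlap between the sets, where 3.37% of the 12273 genes tested did not. Since Dbp is one of the 10 and drew the line, nothing is read from this count.

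**Figure D2:**
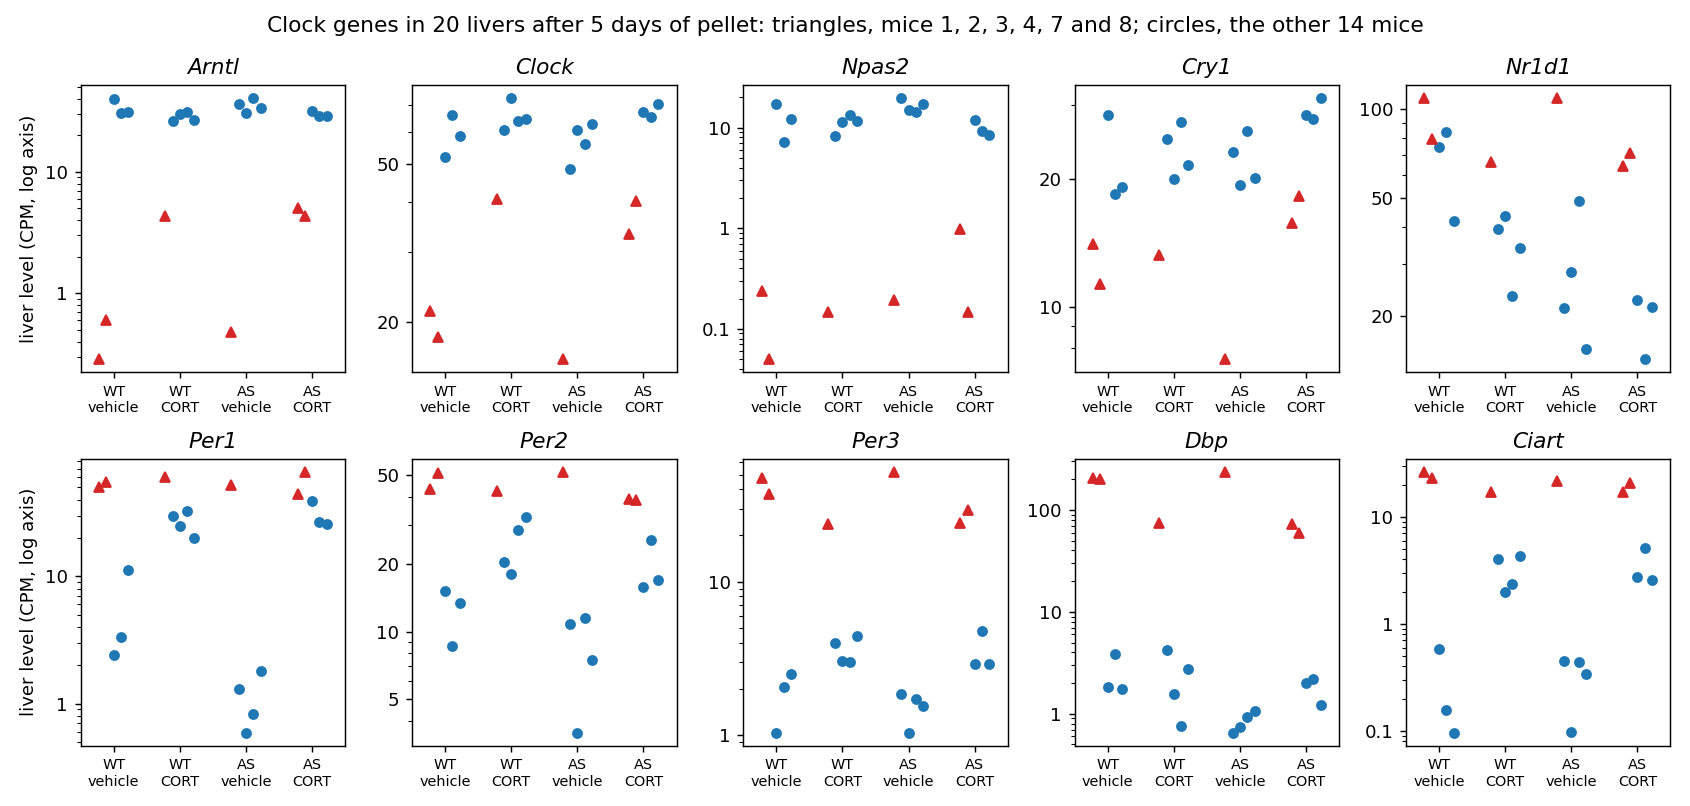
Level of each clock gene (CPM, log axis) in each of the 20 livers by group, with triangles for mice 1, 2, 3, 4, 7 and 8 and circles for the other 14. Arntl, Clock, Npas2 and Cry1 are lower and Per3, Dbp and Ciart higher in the triangles, in every group.

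Depth did not separate the sets, with 19497350 to 20793146 counts on genes in the 6 livers and 18612550 to 20868924 in the other 14. The division was also present outside the clock genes. One surrogate variable estimated by sva from the tested genes other than the 10 clock genes and 19 further clock genes ran from -0.43 to -0.23 in the 6 livers and from -0.04 to 0.25 in the other 14.

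The hippocampi of the same 6 mice, matched by number, stood apart for 3 of the 10 genes. Nr1d1 was 109 to 120 CPM in the hippocampi of the 6 mice and 71.5 to 90.1 CPM in the 12 others that were fitted. Dbp was 54.0 to 86.1 against 36.3 to 50.9 CPM, and Ciart 11.1 to 13.98 against 4.81 to 7.52 CPM. The other 7 genes overlapped. Among all genes tested in the hippocampus, 0.167% did not overlap between these mice. The libraries left out of the fits had high levels of some of these genes, while both of their livers lay in the lower Dbp set. Library 9 had 120 CPM of Nr1d1 and 66.4 of Dbp, and library 13 had 124 CPM of Dbp and 12.6 of Ciart.

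**Figure D3:**
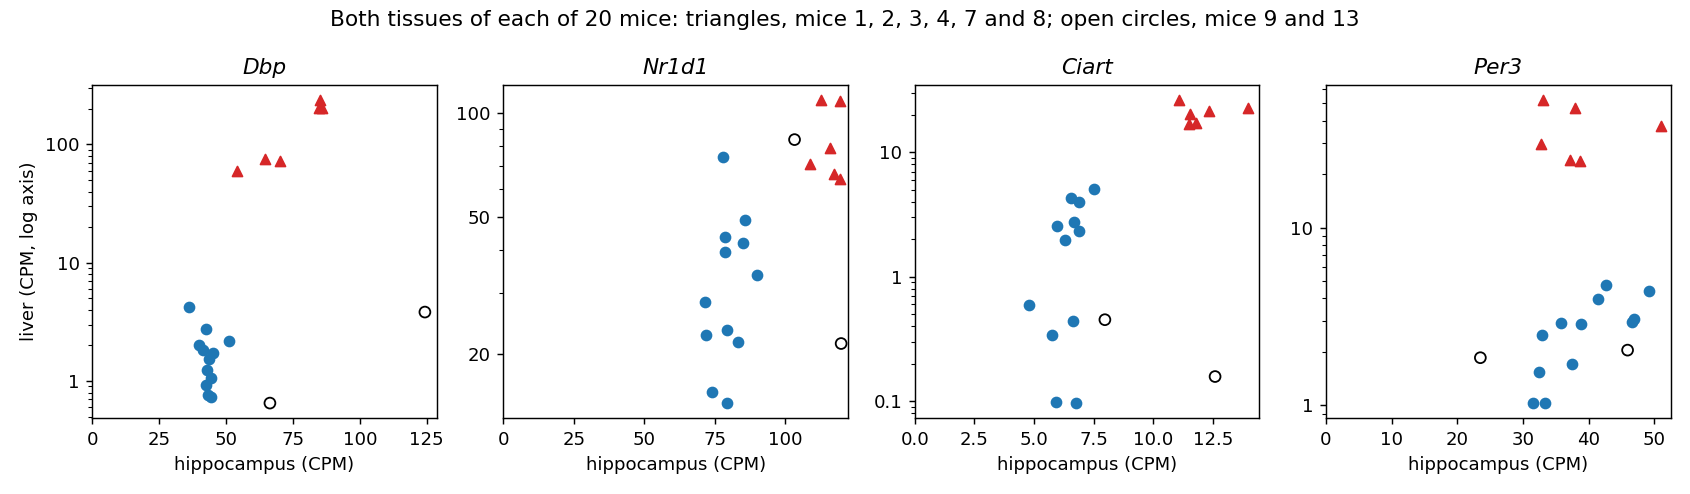
Level in liver (CPM, log axis) against level in hippocampus (CPM) of the same mouse, matched by number, for Dbp, Nr1d1, Ciart and Per3. The 6 triangles (mice 1, 2, 3, 4, 7 and 8) lie to the right of the filled circles for Dbp, Nr1d1 and Ciart, and overlap them on the hippocampal axis for Per3.

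Whether continuous CORT altered the clock genes in liver was tested over all 20 livers. None of the 10 genes passed the threshold (edgeR quasi-likelihood test, Benjamini-Hochberg adjusted p under 0.05) in WT mice, where 18.6% of all genes did, or in AS mice, where 27.5% did. None reached an unadjusted p under 0.05 in either. DESeq2 also called 0, and limma-voom with sample weights called 1 in WT mice (Per1), where it called 21.3% of all genes, and 3 in AS mice (Per1, Per2 and Ciart), where it called 32.4%. The intervals were wide. Per1 differed by 0.46 (95% interval -1.36 to 2.28, edgeR adjusted p = 0.795) in WT mice and by 1.84 (-0.05 to 3.74, edgeR adjusted p = 0.167) in AS mice, both as log2 fold change with CORT. Dbp differed by -2.28 (-5.67 to 1.11) in WT and by -0.80 (-4.06 to 2.46) in AS mice. Ciart differed by -0.75 (-3.10 to 1.60) and 1.05 (-1.34 to 3.44), and Per3 by -1.24 (-3.49 to 1.01) and 0.13 (-2.08 to 2.34). With 1 liver left out, the WT difference ran from 0.14 to 0.99 for Per1 and from -5.15 to -1.62 for Dbp. It ran from -1.67 to 0.01 for Ciart and from -2.32 to -0.49 for Per3, with 0 calls. Leaving out the AS vehicle liver of mouse 2 alone moved the AS difference of Per1 to 5.15 (edgeR adjusted p = 0.000195) and brought Per2 (1.71, edgeR adjusted p = 0.0123) and Ciart (4.83, edgeR adjusted p = 0.020) past the threshold. It turned the AS difference of Dbp from -0.80 to 5.02 (edgeR adjusted p = 0.0661), outside the interval given above. That of Per3 moved from 0.13 to 3.05 (edgeR adjusted p = 0.0547). For Per1, Per2 and Ciart this was the only call in 20 fits that each left out 1 liver. Mouse 2 stood apart by the values of these same genes, so the results without it are a description.

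Per1, the period gene that glucocorticoids are known to induce, carried this spread among vehicle livers. Per1 was 49.98 CPM (mouse 1), 54.7 (mouse 4), 2.40 (mouse 6), 3.36 (mouse 13) and 11.3 (mouse 17) in WT vehicle livers. It was 59.7 CPM (mouse 3), 29.97 (mouse 5), 24.9 (mouse 12), 32.4 (mouse 15) and 20.1 (mouse 20) in WT CORT livers. The AS vehicle livers had 51.7 CPM (mouse 2), 1.30 (mouse 9), 0.59 (mouse 11), 0.83 (mouse 14) and 1.79 (mouse 19). The highest and lowest vehicle livers thus differed 22.7-fold in WT and 87.8-fold in AS mice. The AS CORT livers had 44.4 CPM (mouse 7), 66.2 (mouse 8), 39.1 (mouse 10), 26.8 (mouse 16) and 25.8 (mouse 18). With CORT the ratio was 2.97 in WT and 2.57 in AS mice.

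Ciart, the repressor driven by the loop, also spread widely among vehicle livers. Ciart was 26.4 CPM (mouse 1), 22.8 (mouse 4), 0.59 (mouse 6), 0.16 (mouse 13) and 0.10 (mouse 17) in WT vehicle livers. It was 17.2 CPM (mouse 3), 4.002 (mouse 5), 1.97 (mouse 12), 2.35 (mouse 15) and 4.28 (mouse 20) in WT CORT livers. In both genotypes the highest and the lowest livers were vehicle livers, whereas the highest Per1 livers were CORT livers. Ciart in AS vehicle livers was 21.7 CPM (mouse 2), 0.45 (mouse 9), 0.10 (mouse 11), 0.44 (mouse 14) and 0.34 (mouse 19). In AS CORT livers it was 16.9 CPM (mouse 7), 20.6 (mouse 8), 2.74 (mouse 10), 5.08 (mouse 16) and 2.56 (mouse 18).

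Among the 14 livers below the Dbp gap, each CORT liver was above each vehicle liver for Per1, Per2, Per3 and Ciart. Per1 was 0.59 to 11.3 CPM in the 7 vehicle livers and 20.1 to 39.1 CPM in the 7 CORT livers. Per2 was 3.54 to 15.2 against 15.9 to 32.5 CPM, and Per3 1.03 to 2.50 against 2.89 to 4.77 CPM. Ciart was 0.10 to 0.59 against 1.97 to 5.08 CPM, with vehicle values near the count floor. The other 6 genes overlapped, among 13.8% of all genes tested that did not. Of the further clock genes, Usp2, a deubiquitinase gene with a clock-driven transcript, was 0.89 to 2.50 CPM with vehicle and 10.96 to 30.8 CPM with CORT, and the Dbp relatives Tef (28.1 to 51.1 against 55.1 to 105 CPM) and Hlf (25.8 to 44.4 against 45.4 to 63.7 CPM) were also apart. Btrc was lower in each of these CORT livers than in each vehicle liver. Tef, Hlf and Usp2 were chosen for mention after their values were seen.

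In the 6 livers above the gap, 3 with vehicle and 3 with CORT, the order was another one. Per1 overlapped, with 49.98 to 54.7 CPM in vehicle and 44.4 to 66.2 CPM in CORT livers. Dbp was lower with CORT (60.0 to 75.3 against 201 to 237 CPM), as were Per2 (39.0 to 42.5 against 43.4 to 51.9 CPM), Per3 (23.6 to 29.4 against 37.2 to 52.2 CPM), Nr1d1 (64.3 to 71.0 against 79.3 to 109 CPM) and Ciart (16.9 to 20.6 against 21.7 to 26.4 CPM). Arntl (4.30 to 5.02 against 0.29 to 0.60 CPM) and Clock (33.2 to 40.7 against 16.2 to 21.3 CPM) were higher with CORT. These 7 of 10 genes did not overlap, where 34.3% of all genes did not in these 6 livers. With 3 livers a side drawn from both genotypes, this is a description.

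Further fits were added after the values had been seen. With the surrogate variable as a covariate over all 20 livers, CORT raised 3 of the 10 genes in WT mice, where 26.2% of all genes were called, and 5 of the 10 in AS mice, where 31.2% were. Per1 rose by 1.55 ± 0.49 (log2, SE, edgeR adjusted p = 0.0236) in WT and by 2.46 ± 0.52 (edgeR adjusted p = 0.00105) in AS mice. Clock (0.47 in WT and 0.68 in AS mice) and Ciart (1.21 and 1.36) rose in both genotypes, and Arntl (1.15) and Cry1 (0.70) in AS mice. A fit without the 6 livers is given as a description, since its livers were kept by their Dbp values and genes that move with Dbp are not independent of that choice. In it 4 genes were past the threshold in WT mice, against 19.3% of all genes, and 5 in AS mice, against 25.6%. Per1 differed by 2.23 ± 0.39 (log2, SE) in WT and by 4.75 ± 0.44 in AS mice. Ciart differed by 3.45 and 3.36, Per2 by 1.002 and 1.23, Per3 by 0.95 and 1.19, and Npas2 by -0.14 in WT mice, not past the threshold, and by -0.74 in AS mice. Per1 and Ciart were past the threshold in both genotypes with the surrogate variable. Their values in the 14 livers are no separate support, since those livers were kept by Dbp. The surrogate variable also separated the 6 livers, so the 2 added fits are not independent of each other. Directions turned between fits. Over all 20 livers the WT difference was -0.75 for Ciart and -1.24 for Per3, neither called, and both were above 0 in both added fits. The AS difference of Arntl was -0.52 over all 20 livers, 1.15 with the surrogate variable and -0.24 in the 14 livers.

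**Figure D4:**
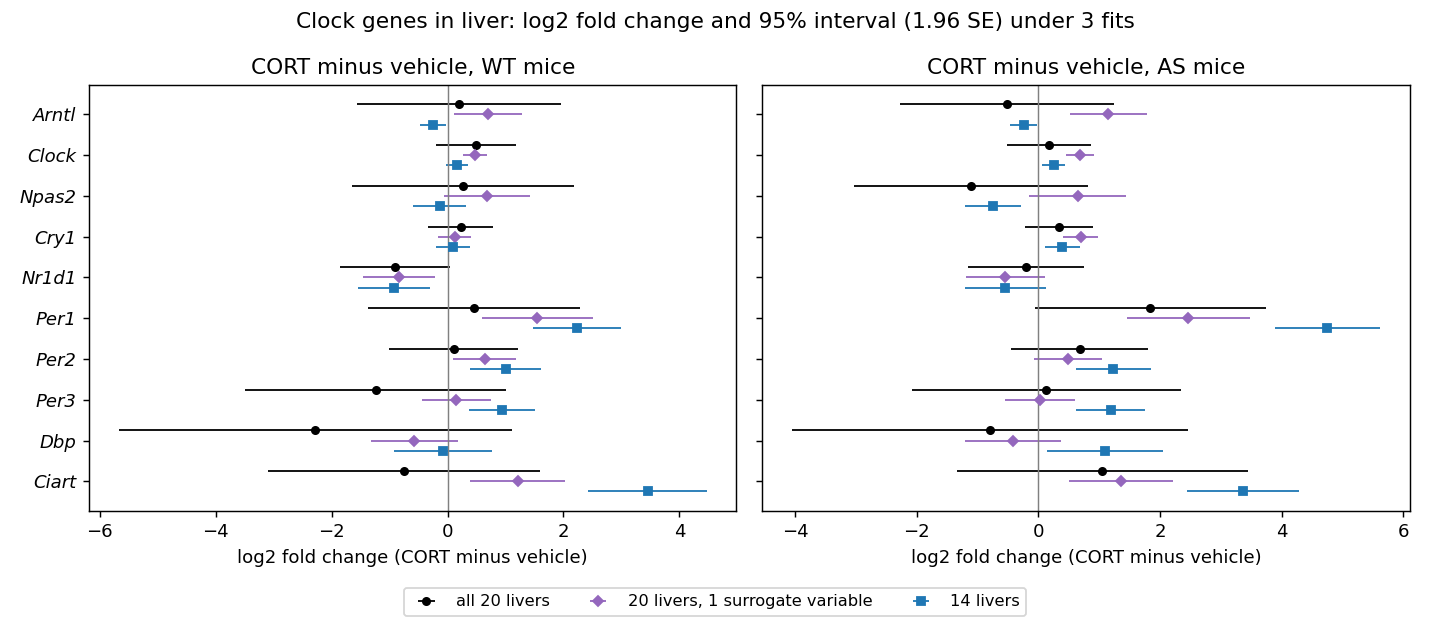
Log2 fold change with CORT (horizontal axis, CORT minus vehicle) with its 95% interval for each clock gene in WT and AS livers under 3 fits. The intervals of Per1 and Ciart include 0 over all 20 livers, and lie above 0 with the surrogate variable and in the 14 livers. The 14 livers were kept by their Dbp values.

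Markers of other cells moved with CORT in liver. The summed level of 10 of 10 nonparenchymal markers was 122 to 163 CPM in CORT and 170 to 278 CPM in vehicle livers, and that of 5 of 5 blood markers 124 to 327 against 243 to 573 CPM, with no marker of either list at 0 in all livers. Reads not assigned to a gene were 15.36 to 19.64% in CORT and 18.15 to 23.29% in vehicle livers, and reads not aligned 1.49 to 4.77% against 4.52 to 8.93%. The part of the markers and of these reads in the clock gene values was not tested. In such bulk tissue, fewer cells of a type and less RNA per cell cannot be told apart.

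No clock gene differed between the genotypes past the threshold in liver. AS against WT mice gave 0 of 10 calls with vehicle (0.0163% of all genes called) and 0 with CORT (0.277%), and the CORT effect differed between genotypes for 0 of 10 (0% of all genes called, 995 at an unadjusted p under 0.05). None of the 10 reached an unadjusted p under 0.05 in these 3 contrasts, and DESeq2 and limma-voom called 0. For Per1 with vehicle the difference was -1.11 (95% interval -2.99 to 0.77), which does not show that the genotypes are alike. Without the AS vehicle liver of mouse 2 it was -4.42 (edgeR adjusted p = 0.0575), and the same difference moved from -0.78 to -6.59 for Dbp and from -1.11 to -4.89 for Ciart, none past the threshold.

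In the hippocampus of the continuous cohort 0 of the 10 genes passed the threshold with CORT in WT mice (2.92% of all genes called) or in AS mice (3.77%). DESeq2 and limma-voom called 0 as well, and an unadjusted p under 0.05 was reached by 0 genes in WT mice and by Npas2 and Per1 in AS mice. Per1 was 93.2 CPM (mouse 2), 70.7 (mouse 11), 63.8 (mouse 14) and 56.2 (mouse 19) in AS vehicle hippocampi. It was 96.2 CPM (mouse 7), 81.6 (mouse 8), 79.4 (mouse 10), 90.6 (mouse 16) and 93.9 (mouse 18) in AS CORT hippocampi. The groups overlapped through mouse 2. Per1 differed by 0.31 ± 0.13 (SE, edgeR adjusted p = 0.236), and by 0.47 (edgeR adjusted p = 0.0272) without mouse 2. Per3 in WT mice differed by 0.20 (edgeR adjusted p = 0.431), and by 0.36 (edgeR adjusted p = 0.0371) without mouse 4. Per1 in AS mice and Per3 in WT mice were each called in only 1 of 18 fits that left out 1 library. Mice 2 and 4 are among the 6 set apart by liver Dbp. Leaving out all 6 mice left 2 WT vehicle, 4 WT CORT, 3 AS vehicle and 3 AS CORT hippocampi. In this fit, added after the values had been seen and with mice kept by a clock gene's own liver values, 1 of the 10 genes was past the threshold in each genotype, which is given as a description. Per3 differed by 0.47 in WT mice (1.67% of all genes called) and Per1 by 0.47 in AS mice (2.49% of all genes called). AS against WT mice gave 0 of 10 calls with vehicle (0.0134% of all genes called) and with CORT (0.0401%), with Cry1 at an unadjusted p under 0.05 in both and Per3 with CORT, and 0 calls by DESeq2 and limma-voom. Cry1 differed by -0.30 with vehicle (edgeR adjusted p = 0.505). The interaction gave 0 of 10 calls by edgeR, DESeq2 and limma-voom, and 0 of the 10 had an unadjusted p under 0.05. Of all genes, 0% were called and 561 had an unadjusted p under 0.05.

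To compare the tissues, the CORT effect averaged over genotypes in liver was set against that in hippocampus in one fit. This fit did not pair the 2 tissues of a mouse. None of the 10 genes differed, where 19.6% of all genes did, and none had an unadjusted p under 0.05. DESeq2 called 0 and limma-voom 2, Per1 and Ciart, where it called 23.4% of all genes. The difference for Per1 was 0.93 (95% interval -0.44 to 2.30), and 2.51 (edgeR adjusted p = 0.00081) without mouse 2. Of 20 fits that each left out 1 mouse, this was the only one that called Per1. Dbp differed by -1.24, and by 1.51 without mouse 2, neither past the threshold. With the mouse as a block, 0 of the 10 were called, where 15.5% of all genes were. Per1 was then at 1.76 (edgeR adjusted p = 0.0643). A fit without the 6 mice was added after the values had been seen. Its mice were kept by their liver Dbp, so that its values for genes that move with Dbp are a description. In it 5 of the 10 were past the threshold, against 16.9% of all genes, with differences of 3.13 ± 0.31 (log2, SE) for Per1, 3.27 for Ciart, 0.87 for Per2, 0.75 for Per3 and -0.67 for Npas2.

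In the acute cohort, the libraries themselves divided. Libraries 1 to 16 had 1877 to 2237 low-quality alignments and libraries 17 to 24 had 2640 to 2850. The second set held all 6 AS CORT mice and 2 of the 6 AS vehicle mice, and no WT mouse, so that for AS against WT mice with CORT the set and the genotype cannot be told apart.

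The comparisons of the acute cohort share groups, so they are not independent of each other. CORT 3 h after injection altered 0 of the 10 genes in WT mice, where 1.48% of all genes were called (edgeR), and 2 of the 10 in AS mice, where 17.9% were. Arntl, Per1, Per3 and Ciart had an unadjusted p under 0.05 in WT mice, and DESeq2 and limma-voom called 0. Per1 ranged from 86.6 to 112 CPM (median 99.0) in WT vehicle mice and from 105 to 142 CPM (median 116) in WT CORT mice, overlapping, with a log2 fold change of 0.26 ± 0.09 (SE, edgeR adjusted p = 0.239). In AS mice it was 76.7 to 115 CPM (median 92.6) with vehicle and 77.2 to 101 CPM (median 87.1) with CORT, with a log2 fold change of -0.08.

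Nr1d1 and Dbp fell in AS mice. Nr1d1, the repressor of Arntl, was 115 to 148 CPM (median 143) in AS vehicle and 91.1 to 111 CPM (median 107) in AS CORT mice, which did not overlap. It fell by 0.37 on the log2 scale (SE 0.08, edgeR adjusted p = 0.00378). Dbp was 53.2 to 73.4 CPM (median 60.8) and 38.3 to 44.8 CPM (median 43.1), also apart, and fell by 0.55 (SE 0.08, edgeR adjusted p = 0.000115). Within AS vehicle mice, libraries 17 and 18 had 115 and 118 CPM of Nr1d1 and 53.2 and 56.6 CPM of Dbp. The other 4 had 142 to 148 CPM of Nr1d1 and 59.4 to 73.4 CPM of Dbp. With a covariate for the library set, neither was called, and the share of all genes called fell from 17.9% to 1.03%. Nr1d1 then differed by -0.15 (edgeR adjusted p = 0.811) and Dbp by -0.38 (edgeR adjusted p = 0.118).

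AS against WT mice gave 0 of 10 calls with vehicle (0.157% of all genes called), with Arntl and Per2 at an unadjusted p under 0.05 and 0 calls by DESeq2 and limma-voom. With CORT, 3 of the 10 were lower in AS mice, where 24.9% of all genes were called. These were Per1 (log2 fold change -0.43, edgeR adjusted p = 0.00164), Nr1d1 (-0.46, edgeR adjusted p = 0.000504) and Dbp (-0.53, edgeR adjusted p = 0.000214). With the covariate none of the 10 was called, nor any of all genes (0%), Per1 being at -0.09, Nr1d1 at -0.15 and Dbp at -0.29.

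The CORT effect differed between genotypes for 1 of the 10 genes, where 4.49% of all genes were called. Nr1d1 differed by -0.40 (95% interval -0.63 to -0.17, edgeR adjusted p = 0.0476). Dbp (-0.40, edgeR adjusted p = 0.052) and Arntl (0.38, edgeR adjusted p = 0.063) lay just outside the threshold. The Nr1d1 call held in 7 of 24 fits that left out 1 library, with adjusted p from 0.014 to 0.0923 by edgeR, and not with the covariate (-0.19, edgeR adjusted p = 0.894), where 0.00684% of all genes were called.

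**Figure D5:**
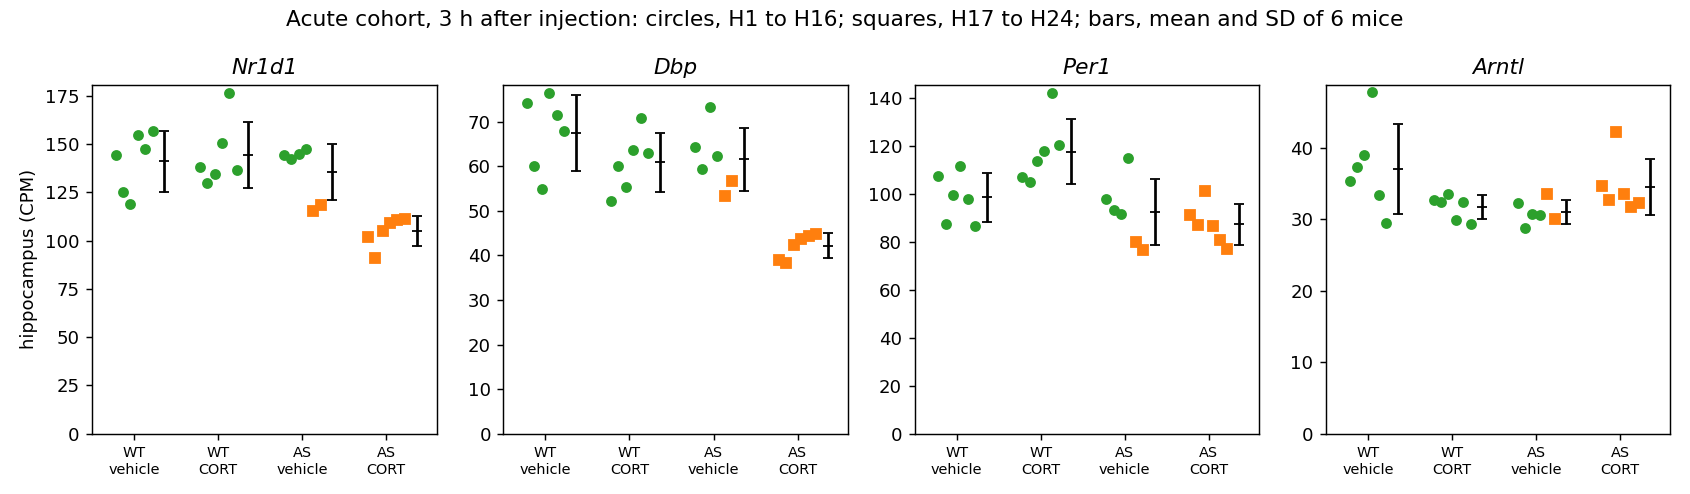
Level in CPM of Nr1d1, Dbp, Per1 and Arntl in each acute hippocampus by group, with circles for libraries 1 to 16, squares for libraries 17 to 24, and the mean and SD of 6 mice at the right of each group. AS CORT mice, all squares, lie below the other groups for Nr1d1 and Dbp.

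Per kilobase of exon, Nr1d1 had the highest mean level of the 10 in every hippocampal group, 34.1 to 46.9 CPM per kilobase in the acute and 28.0 to 32.4 in the continuous cohort. Dbp had 14.1 to 22.5 and Per1 15.5 to 20.9 CPM per kilobase in the acute cohort. Per1 was above Dbp in both CORT groups and below it in both vehicle groups there. Cry1 (2.81 to 3.17) and Ciart (2.82 to 3.43) were lowest in the acute cohort and overlapped. In liver the order depended on the mouse. Dbp had group means of 5.65 to 27.5 CPM per kilobase with SDs of 10.9 to 36.6.

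How the clock genes moved together was examined by correlating log2 CPM after subtraction of group means. The family held 31 relations: 7 gene pairs in each data set and each of the 10 genes between the tissues of one mouse. Since the continuous mice fell into separate sets, no pooled coefficient is given for them. Over all mice, 7 of 7 liver pairs, 4 of 7 hippocampal pairs and 6 of 10 relations between tissues of the continuous cohort had an adjusted permutation p under 0.05. Within the mice below the Dbp gap (14 livers, 12 hippocampi) 0 of these 24 did. That subset was drawn by liver Dbp, which narrows the range of Dbp, and it holds fewer mice, so the count does not show what the relations rest on. No coefficient was computed in the 6 mice alone, where 2 groups held a single mouse. In the acute hippocampus Nr1d1 and Dbp rose and fell together over 24 mice (Pearson r = 0.82, permutation p = 2.0e-05, adjusted 0.000465; Spearman rho = 0.78, permutation p = 4.0e-05, adjusted 0.00062). Without the 2 mice farthest from the median r was 0.76. Within libraries 1 to 16 r was 0.76 (permutation p = 0.003) and within libraries 17 to 24 it was 0.91 over 8 mice (permutation p = 0.00067). Dbp and Ciart had r = 0.57 (permutation p = 0.0138, adjusted 0.0268, and rho = 0.67, permutation p = 0.00207, adjusted 0.00563) and 0.51 without the 2 farthest mice. Adjusted together with the continuous relations within the mice below the gap instead, the p for Dbp and Ciart was 0.143 for r, which missed the threshold, and 0.0321 for rho, and that for Nr1d1 and Dbp 0.00062 for r and 0.00124 for rho. The relation of Dbp and Ciart was 0.76 in libraries 1 to 16 and -0.19 in libraries 17 to 24. The other 5 acute pairs had adjusted permutation p of 0.081 to 0.616.

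The genes most like Per1 and Arntl in liver were chosen among genes with a mean of at least 5 CPM by Pearson r of group-centred log2 CPM over all 20 livers. Since these livers fell into separate sets, the r printed is that within the 14 livers below the Dbp gap, as a description. For Per1 the genes chosen as most like it were Noct (r = 0.82 in the 14 livers), a deadenylase-family gene with a known daily rhythm, Slc5a6 (0.79), Klf13 (0.73), Foxk2 (0.68) and Ripk2 (0.61). The genes chosen as most opposite were Pnrc1 (-0.56), Lrfn3 (-0.49), Atg101 (-0.49), Mreg (-0.44) and Il4ra, whose r in the 14 livers had the other sign (0.18). For Arntl the most like were Chka (0.56), Cldn1 (0.11), Pxmp4 (0.35), Slc45a3 (0.08) and Ddc (0.41). Among the most opposite were the Dbp relative Tef (-0.54), Tnks1bp1 (-0.29), Per3 (-0.37) and Actn1 (-0.58).

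Of 19 further clock genes, 4 were altered by acute CORT in AS mice, where 17.9% of all genes were. Rora (0.25) and Fbxw11 (0.14) rose, and Rorb fell by 0.77 and Bhlhe41 by 0.29 (edgeR adjusted p from 0.000786 to 0.0327). Rora and Rorb encode activators at ROR elements, Bhlhe41 a repressor at E-boxes and Fbxw11 a ubiquitin ligase subunit that acts on PER proteins. In AS against WT mice with acute CORT, Arntl2 was higher (0.30) and Rorb (-0.49) and the kinase gene Csnk1e (-0.19) lower, where 24.9% of all genes were called. With the covariate for the library set 0 of the 19 were called in either contrast. For CORT in AS mice Rorb was then at -0.73 (edgeR adjusted p = 0.082), Rora at 0.28, Fbxw11 at 0.21 and Bhlhe41 at -0.07. In the continuous hippocampus Fbxw11 rose by 0.19 in WT mice (2.92% of all genes called) and Rorb fell by 0.56 in AS mice (3.77%). In liver, where 17 of the 19 were tested, the kinase gene Csnk1d rose by 0.19 and Timeless fell by 0.91 in WT mice (18.6% of all genes called). In AS livers 1 rose and 2 fell (27.5% of all genes called), among them Fbxw11 (0.22) and the ubiquitin ligase gene Btrc, which fell by 0.31. These are log2 fold changes past the edgeR threshold. In the other contrasts of the 3 data sets edgeR called 0 of these genes.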

How the data were processed

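RNA was measured in 24 acute hippocampi and, from 20 mice of the continuous cohort, 20 hippocampi and 20 livers. Per the study's methods the authors made stranded mRNA libraries, aligned paired reads to mm10 with STAR and counted reads per gene with HTSeq; the deposited values are raw counts. The counting strand is not given in the sources used here, and Nr1d1 (Thra), Dbp (Sphk2) and Arntl (Gm45355) share exon bases with another gene. Unassigned rows held 11.7 to 23.3% of reads and were left out.

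A gene was kept if 3 or more libraries of one group each held over 20 size-factor-scaled counts, and was tested by edgeR 4.0.16 (quasi-likelihood, TMM, R 4.3.3) with a coefficient per group, Benjamini-Hochberg adjusted over all genes, threshold 0.05. The log2 CPM used a prior count of 2. DESeq2 1.42.0, limma 3.58.1 and sva 3.50.0 gave alternatives. Intervals are 95%. Correlations used 100000 permutations within groups. On simulated counts for CORT in WT livers, 87% of changes of log2 size 1 and 54% of size 0.5 were recovered. The changed genes were drawn at random from all genes tested. These rates do not apply to the clock genes, whose liver SDs were 0.52 to 3.14 against a median of 0.19.

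Named were all 10 genes, further clock genes past the threshold, Fkbp5, Tsc22d3 and Ube3a as checks, and the 5 most and least like Per1 and Arntl in liver. Some genes that this rule names are not reported here. The genes and lists were chosen with earlier results of these data known. Hippocampus and liver of one number were taken to come from the same mouse, by the numbers in the sample titles. Over 11017 genes the deviations of such pairs correlated by -0.08 to 0.08. Of 18 hippocampi, 0 were most like the liver of their own number, so this check does not settle the pairing. The tissue fit was repeated with the mouse as a block.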

Additional observations from a re-analysis of the deposited data

Results flagged for a closer look

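In 120 groups of 4 to 6 libraries (10 genes in 12 groups), 17 had 1 library far from the others by Dixon's criterion, where chance gives about 1 in 20, or 6. Of these, 8 were the AS vehicle liver of mouse 2, the only AS vehicle liver above the Dbp gap: Arntl 0.48, Clock 16.2, Npas2 0.19, Cry1 7.54, Per1 51.7, Per3 52.2, Dbp 237 and Ciart 21.7 CPM. A further 3 were the WT CORT liver of mouse 3, the only one of its group above the gap, with Arntl 4.30, Npas2 0.15 and Per3 23.6 CPM. The hippocampus of mouse 2 stood apart for Arntl (26.0 CPM, others 35.7 to 37.2) and Dbp (85.1 CPM, others 42.4 to 44.6), and that of mouse 3 for Ciart (11.8 CPM, others 6.30 to 6.88).

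In the acute hippocampus, Arntl was 42.2 CPM in library 21 (others of the AS CORT group 31.8 to 34.7), Clock 74.5 CPM in library 15 (others of the AS vehicle group 86.8 to 92.2) and Cry1 13.2 CPM in library 9 (others of the WT CORT group 8.85 to 10.2). The effect of acute CORT on Nr1d1 differed between AS and WT mice by -0.40 on the log2 scale in the interaction test (edgeR adjusted p = 0.0476). That call was lost with the covariate for the library set (-0.19, edgeR adjusted p = 0.894), in 17 of 24 fits that left out 1 library, and without the filter on low counts.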

How the results depend on the processing

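Of 3300 values for single clock genes with 1 library or mouse left out, 3262 kept their side of the threshold, 17 lost a call and 21 gained one. Of 1250 under other settings, 1192 did, 10 lost a call, 42 gained one and 6 turned sign with a call. Among those that kept their side, the sign turned for 103 and 76 values, called in neither fit. Examples with limma-voom are Ciart in WT livers (from -0.75 to 2.11), Dbp in AS livers (from -0.80 to 2.15) and Per3 between tissues (from -0.71 to 0.72). The cause of these changes was not tested.

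In the acute hippocampus, 1 of 10 genes was called in the interaction (4.49% of all genes). The number was 3 with DESeq2 (8.39%), 0 without a filter on low counts (0.905%), 4 with limma-voom (22.9%), 0 with the covariate for the library set (0.00684%), 0 with libraries 17 and 18 as the only AS vehicle mice (0%), 4 with libraries 13 to 16 as the only ones (19.2%) and 2 with a surrogate variable (6.53%). The 2 calls for CORT in AS mice (17.9% of all genes) fell to 0 with the covariate (1.03%) and to 0 against libraries 17 and 18 (0.89%). The 3 calls for AS against WT mice with CORT (24.9%) fell to 0 with the covariate (0%). With 1 library left out the numbers ran from 0 to 4, 2 to 3 and 3 to 4.

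In the continuous hippocampus the 0 calls with CORT became 1 in WT and 1 in AS mice without the 6 mice, and 0 to 1 in each with 1 library left out. In liver the 0 calls in WT mice became 1 with limma-voom, 1 with only the 2 groups compared (Nr1d1, -0.91, edgeR adjusted p = 0.0431; 17.2% of all genes called), 3 with the surrogate variable and 4 without the 6 mice. Those in AS mice became 3, 5 and 5 with limma-voom, the surrogate variable and without the 6 mice, and 0 to 3 with 1 library left out. Reversed in liver were Ciart in WT mice (from -0.75 to 1.21 with the surrogate variable, 3.45 without the 6 mice), Arntl in AS mice (from -0.52 to 1.15 with the surrogate variable) and Per3 in WT mice (from -1.24 to 0.95 without the 6 mice).

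For liver against hippocampus the 0 calls became 2 with limma-voom, 5 without the 6 mice and 0 to 1 with 1 mouse left out. With the mouse as a block (paired tissues) 0 were called, Per1 being at 1.76 (edgeR adjusted p = 0.0643), and 5 with the block and without the 6 mice (13.3% of all genes called). Per3 reversed from -0.71 to 0.75 without the 6 mice and to 0.84 with the block as well. Of 31 correlations 19 passed over all mice and 1 without the 6. The 3-count floor of 0.138 to 0.161 CPM limits low values of Ciart and Npas2 in liver.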

Other observations

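Of 19 further clock genes, 2 of them not tested in liver, 5 were higher and 1 lower in each of the livers of mice 1, 2, 3, 4, 7 and 8 than in each of the other 14, and 13 overlapped, where 3.37% of all genes did not overlap. The genes named here were chosen after their values were seen. Tef was 217 to 316 CPM in the livers of mice 1, 2, 3, 4, 7 and 8 and 28.1 to 105 CPM in the other 14. Usp2 was 51.5 to 78.9 CPM against 0.89 to 30.8 CPM, and Nr1d2, a paralog of Nr1d1, 58.4 to 105 CPM against 17.4 to 44.1 CPM. Nfil3, a repressor at D-boxes, ran the other way, with 7.64 to 19.98 CPM against 34.3 to 58.2 CPM.

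Among the 14 livers below the Dbp gap the within-group SD of log2 CPM was 0.16 for Arntl and 0.14 for Clock. The median was 0.16 over all genes tested. The SD was 0.66 for Per1 and Dbp and 0.685 for Ciart, also below their 1.69, 3.14 and 2.37 over all 20 livers. These livers were kept by Dbp, which by itself lowers the SD of genes that did not overlap between the sets. In the acute hippocampus, Clock was 52.8 CPM in library 8 and 61.6 CPM in library 11, against 86.3 to 92.1 CPM in the other 4 WT CORT mice.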
